A study of Homo sapiens with 10 samples.

Results

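The proteasome subunit genes are the 37 protein-coding genes of GENCODE release 44 whose symbol is PSMA, PSMB, PSMC or PSMD followed by digits, leaving out PSMB8 and PSMB9. They were compared with all 19970 protein-coding genes on chromosomes 1 to 22 and X. The measurement was Rb occupancy at their promoters, defined as 2000 bp upstream to 500 bp downstream of any annotated transcript start, and membership did not depend on any measured value. Rb was mapped by CUT&RUN, in which an antibody directs a micrococcal nuclease to the chromatin it binds and the released fragments are sequenced. Cultures of OVCAR-3 or Kuramochi, both established lines from human ovarian cancer, received 300 nM INX-315, a CDK2 inhibitor, or DMSO as solvent control, for 2 days. Treatments were represented in either line by 2 Rb libraries, which gave 4 groups, and an IgG2a library from DMSO-treated cells served as the control of its line. Peak lists hold no expression values, so the identity of the lines could not be checked against marker genes, and transcript levels of the proteasome were not measured.

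The 26S proteasome is the main protease for ubiquitylated proteins in the nucleus and cytosol. Its core particle is a barrel of outer alpha rings, which gate the channel, and inner beta rings, in which some subunits carry the proteolytic sites. The regulatory particle that caps the core has a base, whose ATPases unfold substrates, and a lid, which removes ubiquitin. Most of the genes are expressed in nearly all cells, and NFE2L1 and NFE2L2 are transcription factors known to raise many of them through antioxidant response elements. Rb is a pocket protein that joins E2F factors at promoters of cell cycle genes, and cyclin-dependent kinases release it by phosphorylation.

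Sequences near the summits of 6 of these promoters are shown to let the DNA be read beside the values. Each is the longest stretch free of annotated untranslated bases within the 200 bp around the summit of the gene's highest Rb peak. It is read 5′ to 3′ on the strand of the gene. Coordinates are hg38. Capitals mark matches, on either strand, to letters of 7 motifs, namely E2F (TTTGGCGC, TTTCCCGC, TTTCGCGC or TTTGCCGC), CHR (TTTGAA), the antioxidant response element (TGACNNNGC), nuclear respiratory factor 1 (GCGCATGC), the CCAAT box (CCAAT), ETS (CCGGAAG) and AP-1 (TGANTCA). PSMA2 (chr7:42932215-42932350, minus strand) had the largest rise in height, and its capitals are a nuclear respiratory factor 1 match and a CCAAT box. PSMC3 (chr11:47426575-47426774, minus strand) held the most capitals, a CCAAT box, 2 antioxidant response elements and a CHR. PSMA5 (chr1:109426614-109426813, minus strand) had the second highest mean height under INX-315 and a CCAAT box. PSMD12 (chr17:67366426-67366519, minus strand) gained a peak in both lines, and its capitals mark an antioxidant response element inside the transcribed region. The PSMD12 stretch starts downstream of the summit, and an ETS match of its 200 bp window lies outside the stretch. PSMA6 (chr14:35291974-35292173, plus strand) had the second largest rise and no listed motif. PSMA1 (chr11:14520478-14520677, minus strand) was added after its values were seen, because its window alone held E2F letters.
PSMA2: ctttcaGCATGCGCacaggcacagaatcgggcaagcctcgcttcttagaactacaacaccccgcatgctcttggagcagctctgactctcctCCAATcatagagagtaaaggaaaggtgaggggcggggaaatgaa
PSMC3: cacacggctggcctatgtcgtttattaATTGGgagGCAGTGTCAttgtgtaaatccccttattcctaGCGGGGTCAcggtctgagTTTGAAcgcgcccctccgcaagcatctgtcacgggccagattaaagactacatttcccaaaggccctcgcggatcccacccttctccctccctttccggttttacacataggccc
PSMA5: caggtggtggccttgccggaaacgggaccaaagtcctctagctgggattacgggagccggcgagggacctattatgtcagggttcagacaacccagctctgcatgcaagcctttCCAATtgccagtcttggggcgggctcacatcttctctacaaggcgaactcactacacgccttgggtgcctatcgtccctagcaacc
PSMD12: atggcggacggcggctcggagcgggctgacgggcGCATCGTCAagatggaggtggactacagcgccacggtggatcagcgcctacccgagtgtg
PSMA6: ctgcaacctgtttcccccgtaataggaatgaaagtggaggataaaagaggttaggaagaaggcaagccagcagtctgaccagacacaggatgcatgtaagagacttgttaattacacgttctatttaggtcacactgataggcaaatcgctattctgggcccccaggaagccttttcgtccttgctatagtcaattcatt
PSMA1: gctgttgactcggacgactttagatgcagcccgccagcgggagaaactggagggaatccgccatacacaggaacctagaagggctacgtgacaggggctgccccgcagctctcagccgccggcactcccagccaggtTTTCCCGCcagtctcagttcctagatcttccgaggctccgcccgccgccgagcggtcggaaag

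Peaks were called by the authors in each library separately. The 8 Rb lists held 5221 to 8794 peaks under DMSO and 13031 to 17281 under INX-315. Mean coverage, the depth recovered from the lists, was 0.216 to 0.501 fragments per base, lowest in Kuramochi INX-315 replicate 2. Summit heights below are fragments over the summit divided by this mean coverage, so a height of 20 is 20 times the average base of that library. At average background the lowest height that could be called was 9.51 to 13.9, or 3 to 5 fragments, so a promoter without a peak may still hold weaker signal. The IgG2a lists had a peak at 0 of the 37 genes in either line, beside 0.015% (OVCAR-3) and 0.00501% (Kuramochi) of all genes.

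The first comparison asked how many of the 37 genes carried an Rb peak and whether INX-315 changed that number. In OVCAR-3 a promoter peak was present at 16 and 19 of them in the DMSO libraries and at 28 and 32 in the INX-315 libraries. The Kuramochi DMSO libraries had 16 and 22, and the INX-315 libraries 29 and 26. In both lines each INX-315 library exceeded both DMSO libraries, and the same held for all protein-coding genes. Of those, 30.1% and 37.0% had a peak with DMSO and 56.0% and 64.9% with INX-315 in OVCAR-3. The Kuramochi shares of all genes were 26.3% and 39.0% against 59.8% and 55.2%. Means were 17.5 ± 2.12 and 30 ± 2.83 in OVCAR-3 and 19 ± 4.24 and 27.5 ± 2.12 in Kuramochi (SD, n = 2 each). No test was made of these counts.

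Genes with a peak in both replicates are called bound. Under DMSO 16 of 37 proteasome genes (43.2%) were bound in OVCAR-3, where 26.8% of all protein-coding genes were. In Kuramochi 14 (37.8%) were bound under DMSO beside 24.8% of all genes, and leaving out its shorter list, DMSO replicate 1, gave 22. With INX-315 the number for OVCAR-3 was 28 (75.7%) beside 55.5% of all genes. That for Kuramochi was 26 (70.3%) beside 53.2%. The proteasome genes thus stood above the background share in each of the 4 groups, and both shares were higher with INX-315. All protein-coding genes include tissue-specific ones, and expression was not measured, so other constitutive complexes were set beside them. Of the 78 mitochondrial ribosomal protein genes 34.6% were bound with DMSO in either line, and 74.4% (OVCAR-3) and 78.2% (Kuramochi) with the inhibitor. Bound cytosolic ribosomal protein genes, of 83, went from 14.5% to 57.8% in OVCAR-3 and from 24.1% to 60.2% in Kuramochi. With INX-315 the proteasome share was thus slightly above that of the mitochondrial ribosomal genes in OVCAR-3 and below it in Kuramochi.

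**Figure D1:**
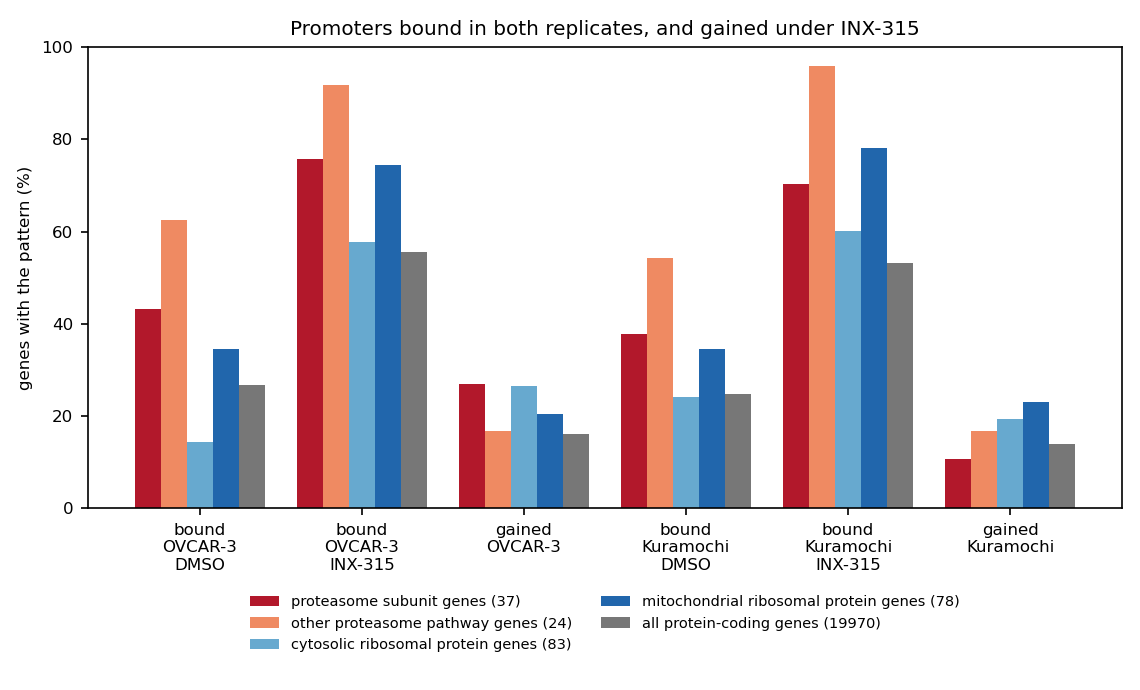
Share of genes (%, vertical axis) bound in both replicates of a group, or gained under INX-315, for the 37 proteasome subunit genes, 24 other genes of the pathway, 83 cytosolic and 78 mitochondrial ribosomal protein genes and all 19970 protein-coding genes. Bound proteasome genes went from 43.2% to 75.7% in OVCAR-3 and from 37.8% to 70.3% in Kuramochi.

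A gene was counted as gained where both INX-315 libraries of a line and neither DMSO library had a peak. In OVCAR-3 10 proteasome genes were gained (27.0%) beside 16.2% of all genes. In Kuramochi 4 were gained (10.8%) beside 14.0% of all genes. Only genes with no peak in either DMSO library can be gained. Of 18 such proteasome genes in OVCAR-3 55.6% were gained, beside 27.1% of all such genes, and of 13 in Kuramochi 30.8%, beside 23.5%. Among such mitochondrial ribosomal protein genes 44.4% (OVCAR-3) and 54.5% (Kuramochi) were gained, and among such cytosolic ones 39.3% and 34%. The proteasome share was thus above both groups in OVCAR-3 and below both in Kuramochi. A loss, with a peak in both DMSO libraries and neither INX-315 library, was seen at 0 proteasome genes and at 0.00501% (OVCAR-3) and 0.0150% (Kuramochi) of all genes. The pair gained in both lines, PSMC6 and PSMD12, is 5.41% of the 37 beside 5.56% of all genes. Among the 8 genes gained in OVCAR-3 alone, PSMA3, PSMA4, PSMB1, PSMC2 and PSMD3 already had a peak in at least 1 Kuramochi DMSO library. PSMD6 and PSMD14 had no peak in any Kuramochi library. The remaining gene, PSMB4, had a peak in 1 Kuramochi library, INX-315 replicate 1. Kuramochi alone gained PSMB7 and PSMD4. The number for Kuramochi rested on its longer DMSO list, since leaving out DMSO replicate 2 raised it from 4 to 11. When each list of a line was cut to the length of its shortest one, OVCAR-3 gained 1 proteasome gene and Kuramochi 0, beside 2.33% and 2.03% of all genes. At that length the bound proteasome genes of OVCAR-3 numbered 15 with DMSO and 13 with INX-315, beside 24.8% and 29.0% of all genes. Those of Kuramochi numbered 13 and 11, beside 21.8% and 25%. At equal length the proteasome counts were thus not higher with INX-315, while the share of all genes was.

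**Figure D2:**
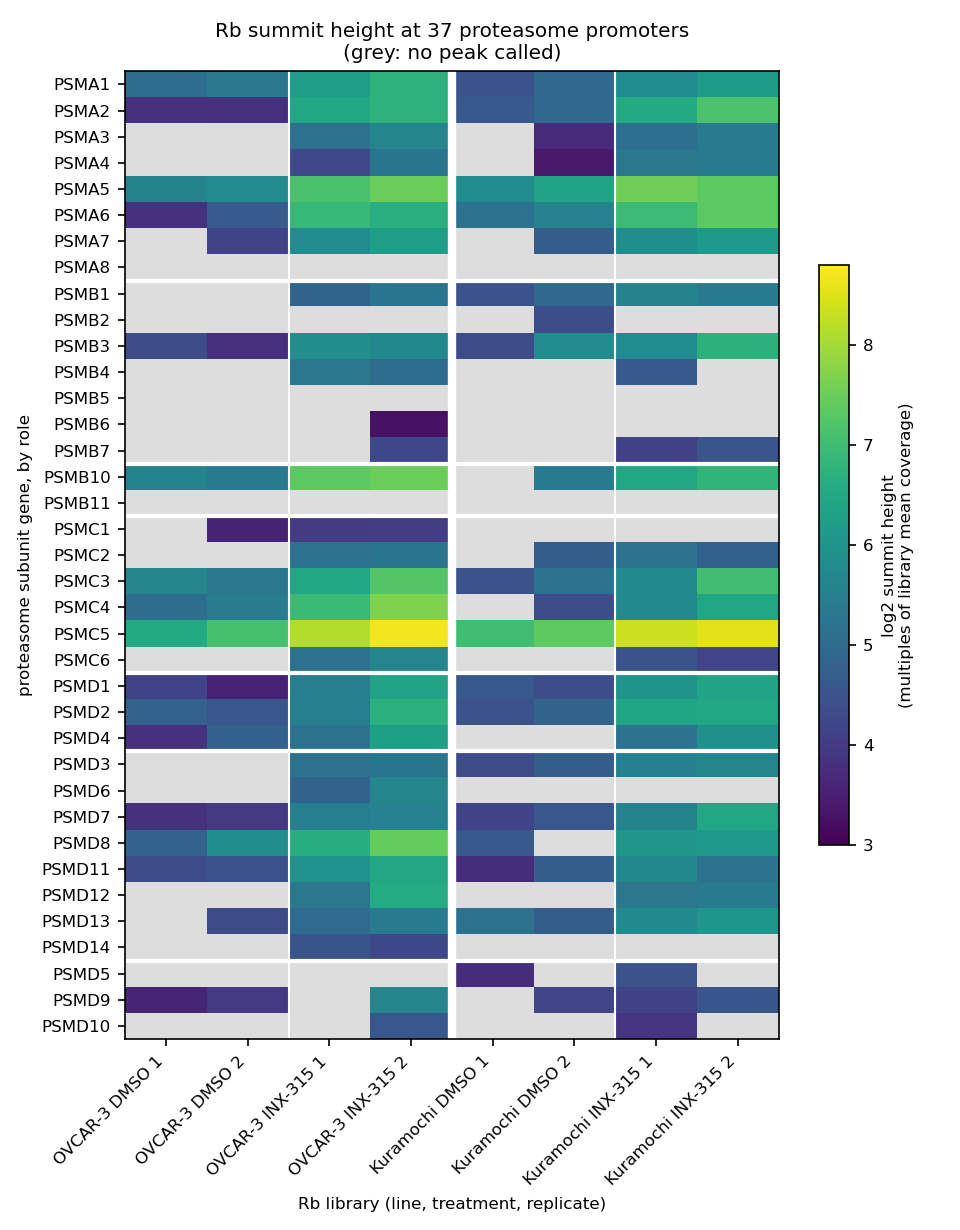
Rb summit height (log2 of multiples of the library's mean coverage, colour) at the promoters of the 37 proteasome subunit genes (rows, grouped by role from alpha ring at the top to base assembly chaperones at the bottom) in the 8 Rb libraries (columns). Grey cells have no peak; 11 rows are filled in all 8 libraries, 3 rows are empty, and PSMC5 is the brightest row.

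Bound genes were also counted by role, to be read beside the 55.5% (OVCAR-3) and 53.2% (Kuramochi) of all genes bound with INX-315. With the inhibitor all 8 lid genes and all 6 base ATPase genes were bound in OVCAR-3. In Kuramochi 6 lid genes and 5 base ATPase genes were. The 3 non-ATPase genes of the base, PSMD1, PSMD2 and PSMD4, were bound in both lines with INX-315, and so were 7 of the 8 alpha ring genes. The constitutive beta ring had 3 of 7 genes (42.9%) bound per line with INX-315. They were PSMB1, PSMB3 and PSMB4 in OVCAR-3 and PSMB1, PSMB3 and PSMB7 in Kuramochi. The chaperones that assemble the base and then leave it, PSMD5, PSMD9 and PSMD10, were bound in at most 1 case per group. These are counts of few genes, and the difference between roles was not tested.

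Peaks were present in all 8 Rb libraries at 11 proteasome genes (29.7%), beside 18.8% of all genes. They were PSMA1, PSMA2, PSMA5, PSMA6, PSMB3, PSMC3, PSMC5, PSMD1, PSMD2, PSMD7 and PSMD11. A further 9 genes had a peak in 6 or 7 libraries, 8 in 3 to 5 libraries and 6 in 1 or 2. In none of the 8 libraries was there a peak at PSMA8, PSMB5 or PSMB11, which is 8.11% of the genes beside 31.2% of all genes. PSMA8 is the testis alpha subunit and PSMB11 the thymus beta subunit. PSMB5, by contrast, encodes the chymotrypsin-like site that clinical proteasome inhibitors block and is a constitutive gene.

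The core particle genes with values in every library were led by alpha subunits. PSMA5 had heights of 48.5 and 55.8 (DMSO) against 140.3 and 180.7 (INX-315) in OVCAR-3, and of 56.2 and 84.3 against 187.7 and 162.1 in Kuramochi. All 4 INX-315 libraries were above all 4 DMSO libraries, as at 83.3% of the 3762 genes with a peak in all 8 libraries. PSMA6 had 14.1 and 25.9 against 117.5 and 99.9 in OVCAR-3, and 35.9 and 47.4 against 126.0 and 162.1 in Kuramochi. Its groups did not overlap either, and its DMSO heights were lowest in OVCAR-3. PSMA2 rose from 14.1 and 14.0 to 88.1 and 107.0 in OVCAR-3, and from 24.7 and 31.6 to 93.8 and 143.6 in Kuramochi. Its OVCAR-3 DMSO heights were close to the detection limit, and every INX-315 library lay far above every DMSO library. The PSMA2 start lies 202 bp from that of MRPL32, which encodes a mitochondrial ribosomal protein and points the other way. The summits lay at -139 to -9 bp from the PSMA2 start. In every library the coding start nearest to the summit was still that of MRPL32 or of an unnamed coding gene and not that of PSMA2. The peak therefore cannot be assigned to PSMA2.

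PSMA3, an alpha subunit gained in OVCAR-3, had no peak under DMSO there and heights of 35.9 and 49.9 under INX-315. In Kuramochi it had a peak of height 13.2 in DMSO replicate 2 and 34.6 and 41.7 under INX-315. PSMB3, the beta subunit with peaks throughout, had 20.2 and 14.0 against 58.7 and 52.3 in OVCAR-3, and 20.2 and 55.3 against 56.8 and 106.5 in Kuramochi. It was the exception among the 11 genes in that DMSO and INX-315 heights overlapped over the 4 against 4 libraries, because of Kuramochi DMSO replicate 2. Heights did not overlap at 83.3% of all 3762 genes with a peak in all 8 libraries. In that library and both Kuramochi INX-315 libraries the highest peak had its summit at -3453 to -2966 bp from the PSMB3 start and nearest to PCGF2, a polycomb gene. The PSMB3 heights of Kuramochi thus mix positions. PSMB6, which carries a proteolytic site of the constitutive core, and PSMB2, which does not, were nearly empty. PSMB2 had 1 peak of height 21.1 in Kuramochi DMSO replicate 2, and PSMB6 1 peak of height 9.51 in OVCAR-3 INX-315 replicate 2. The PSMB6 peak rested on 4 fragments, with a 95% Poisson interval of 2.59 to 24.4 for its height, which covers counting error only.

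Among base ATPases, PSMC5 had the highest summit of all 37 genes in each of the 8 libraries. Its heights were 93.0 and 137.6 (DMSO) against 280.6 and 416.1 (INX-315) in OVCAR-3. In Kuramochi they were 130.3 and 163.3 against 326.0 and 370.5. From 0.579% to 1.94% of all genes with a peak were higher in the same library. PSMC5 shares its promoter region with FTSJ3, an rRNA processing gene, and the coding start nearest to the summit was that of PSMC5 in some libraries and of FTSJ3 in others. PSMC3 had 50.5 and 39.9 against 88.1 and 152.2 in OVCAR-3, and 22.5 and 36.9 against 54.3 and 129.7 in Kuramochi. The groups did not overlap, although the lowest INX-315 height was only slightly above the highest DMSO height.

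PSMC6, gained in both lines, had heights of 35.9 and 49.9 in the INX-315 libraries of OVCAR-3, while the Kuramochi ones had 22.2 and 18.5. PSMC2 had 35.9 and 38.0 in the INX-315 libraries of OVCAR-3, where it was gained, and 26.3 in Kuramochi DMSO replicate 2 with 37.0 and 27.8 under INX-315. These heights were lower than those of PSMC5 in every library with a peak. PSMC4 and PSMD8, both on chromosome 19, lay in regions where the local background, which the peak caller took from the IgG2a library, reached 8.51 and 5.60 times the mean coverage. At other genes it reached 3.74 times (PSMA6, PSMC5, PSMB10 and PSMD7) and 3.73 times (PSMB3 and PSMA7). The part of that background in the heights of these genes was not tested.

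The non-ATPase scaffold genes of the base had moderate heights. PSMD1 had 18.2 and 12.0 against 45.7 and 83.2 in OVCAR-3, and 24.7 and 21.1 against 64.2 and 83.4 in Kuramochi. PSMD2 had 28.3 and 23.9 against 45.7 and 104.6 in OVCAR-3, and 22.5 and 29.0 against 86.4 and 88.0 in Kuramochi. Neither gene overlapped between treatments. PSMD4, which encodes a ubiquitin receptor, had 14.1 and 27.9 against 35.9 and 78.5 in OVCAR-3, and 37.0 and 60.2 under INX-315 alone in Kuramochi.

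Lid genes supplied 4 of the 10 promoters gained in OVCAR-3, namely PSMD3, PSMD6, PSMD12 and PSMD14. PSMD14 encodes the deubiquitinase of the lid, and the others are structural subunits. The INX-315 heights of PSMD12 were 39.2 and 95.1 in OVCAR-3, compared with 39.5 and 41.7 in Kuramochi. PSMD3 had INX-315 heights of 35.9 and 38.0 in OVCAR-3, and 20.2 and 26.3 against 46.9 and 50.9 in Kuramochi. PSMD6 had INX-315 heights of 29.4 and 49.9 in OVCAR-3, its only peaks. A called peak lies at or above the limit of its library nearly by construction. All these gained heights also lay above 13.9, the limit of Kuramochi INX-315 replicate 2, which was the highest of the limits. PSMD7 had 14.1 and 16.0 against 45.7 and 47.6 in OVCAR-3, and 18.0 and 23.7 against 49.4 and 88.0 in Kuramochi. PSMD11 had 20.2 and 21.9 against 62.0 and 90.4 in OVCAR-3, and 13.5 and 26.3 against 51.9 and 37.1 in Kuramochi. Both kept the treatments apart in each line.

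The second comparison asked how far summit heights changed, at the 11 proteasome genes with a peak in all 8 libraries. These 11 of 37 are the genes with enough signal under DMSO to be called there, so they do not stand for the whole set. Heights on the log2 scale were fitted for 3762 genes with limma, and p-values were adjusted over all of them by the Benjamini-Hochberg method at a threshold of 0.1. All 11 were higher under INX-315 in the mean of the lines, where 99.8% of the genes tested were higher. They were also all higher in OVCAR-3 alone (99.0% of the genes tested) and in Kuramochi alone (95.7%). No gene of the 3762 was lower. Heights in every INX-315 library exceeded those in every DMSO library at 10 of the 11, beside 83.3% of the genes tested. The calls of the 11 thus match the background and are no result about the proteasome genes. In these bulk libraries a larger share of cells with Rb at a promoter and more Rb per cell cannot be told apart. Heights are multiples of each library's own mean coverage. A difference in enrichment of whole libraries therefore cannot be told apart from these either.

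The median log2 difference of the 11 was 1.52 in the mean of the lines, beside 1.64 over all genes tested. In OVCAR-3 the medians were 1.63 and 1.78, and in Kuramochi 1.54 and 1.51. Standard errors in the mean of the lines were nearly alike at the 11, 0.27 to 0.31, because limma pooled the spread over genes. PSMA2 had the largest difference, 2.42 ± 0.30 (log2, SE; limma adjusted p = 1.4e-13), a 5.36-fold rise that ranked 44 among the 3762 genes. PSMA6 followed with 2.15 ± 0.31 (4.42-fold; adjusted p = 3.3e-11), above 92.9% of the genes tested. PSMD1 had 1.87, PSMD7 1.65 and PSMD2 1.59, and the smallest difference was 1.28 at PSMA1, with adjusted p-values of at most 3.2e-05. PSMC5, the highest promoter, had 1.42 ± 0.27 and lay below the median of all genes. The order of height was therefore not the order of change.

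**Figure D3:**
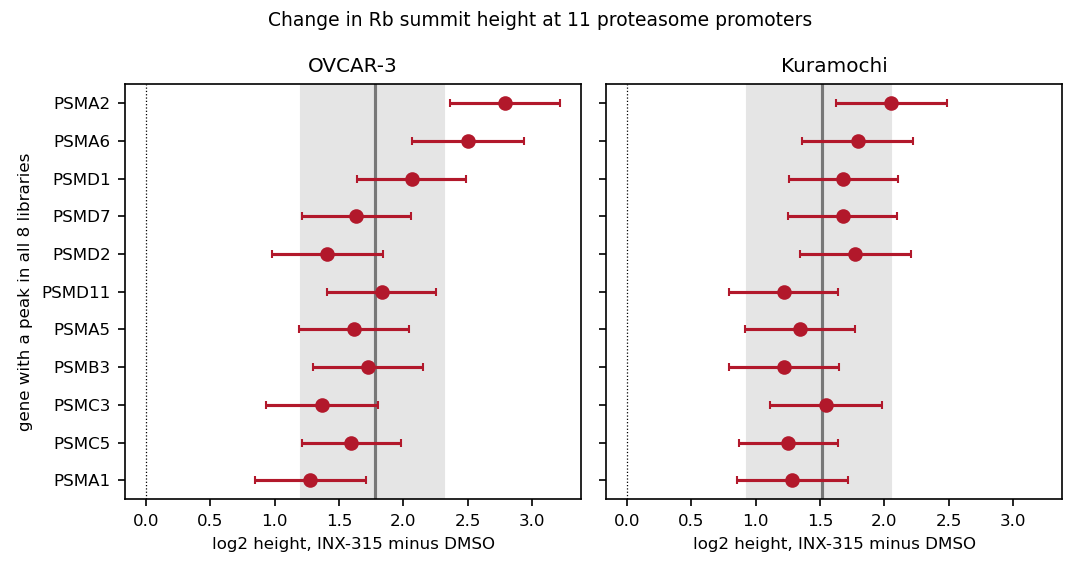
Log2 difference in Rb summit height, INX-315 minus DMSO (horizontal axis; points, with standard errors as bars), at the 11 proteasome genes with a peak in all 8 libraries, in OVCAR-3 (left) and Kuramochi (right). The grey line is the median of all 3762 genes tested (1.78 and 1.51) and the grey band spans their 10th to 90th percentile; in both lines PSMA2 is farthest right, at 2.79 and 2.05.

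With a peak required in at least 4 libraries, 25 proteasome genes could be fitted, with absent heights set to the lowest of the library. Of these, 25 were higher in the mean of the lines (99.7% of all genes tested), 25 in OVCAR-3 (97.8%) and 24 in Kuramochi (92.8%). Some genes, such as PSMC6 and PSMD12, entered through INX-315 libraries alone, so the filled-in DMSO heights set their direction. These counts are therefore no test of a rise.

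Because nearly all promoters rose, heights were also centred on the median of the tested genes in each library, which removes a median shift of 1.64. On that scale PSMA2 alone was higher among the 11, by 0.74 in the mean of the lines (limma adjusted p = 0.010) and by 0.94 in OVCAR-3 (adjusted p = 0.033). That 1 of 11 is near the background, since 9.04% and 3.64% of the genes tested were higher on this scale in the mean of the lines and in OVCAR-3. The centred difference of PSMA2 in Kuramochi was 0.54 (adjusted p = 0.25), where 4.01% of the genes tested were higher. PSMA6 had 0.47 (adjusted p = 0.11) and PSMD1 0.19 (adjusted p = 0.61). The other 8 genes lay between -0.40 and -0.026, none of them past the threshold.

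The lines were then compared. The INX-315 effect in Kuramochi minus that in OVCAR-3 ranged from -0.73 at PSMA2 to 0.36 at PSMD2 (log2), with standard errors of 0.55 to 0.61. None of the 11 passed the threshold (limma adjusted p = 0.999 for each), none had an unadjusted p under 0.05, and 0.00% of all genes tested did pass, with 98 at an unadjusted p under 0.05. Differences larger than their own standard errors, as at PSMA2 and PSMA6 (-0.71), did not pass either. Differences between lines of this size or smaller were therefore not detectable here. Under DMSO, 12.0% of the genes tested differed between lines, and 1 of the 11 did. PSMA6 was higher in Kuramochi by 1.11 ± 0.43 (log2, SE; limma adjusted p = 0.094). That call was lost (limma adjusted p = 0.14 to 0.73) without OVCAR-3 DMSO replicate 1 or 2, Kuramochi DMSO replicate 2 or Kuramochi INX-315 replicate 1 or 2. It was also lost on the scale of the listed fold enrichment (0.39, adjusted p = 0.85). On the centred scale 4 genes differed between lines, with PSMA2 and PSMA6 higher and PSMA1 and PSMC3 lower in Kuramochi, beside 36.8% of the genes tested.

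**Figure D4:**
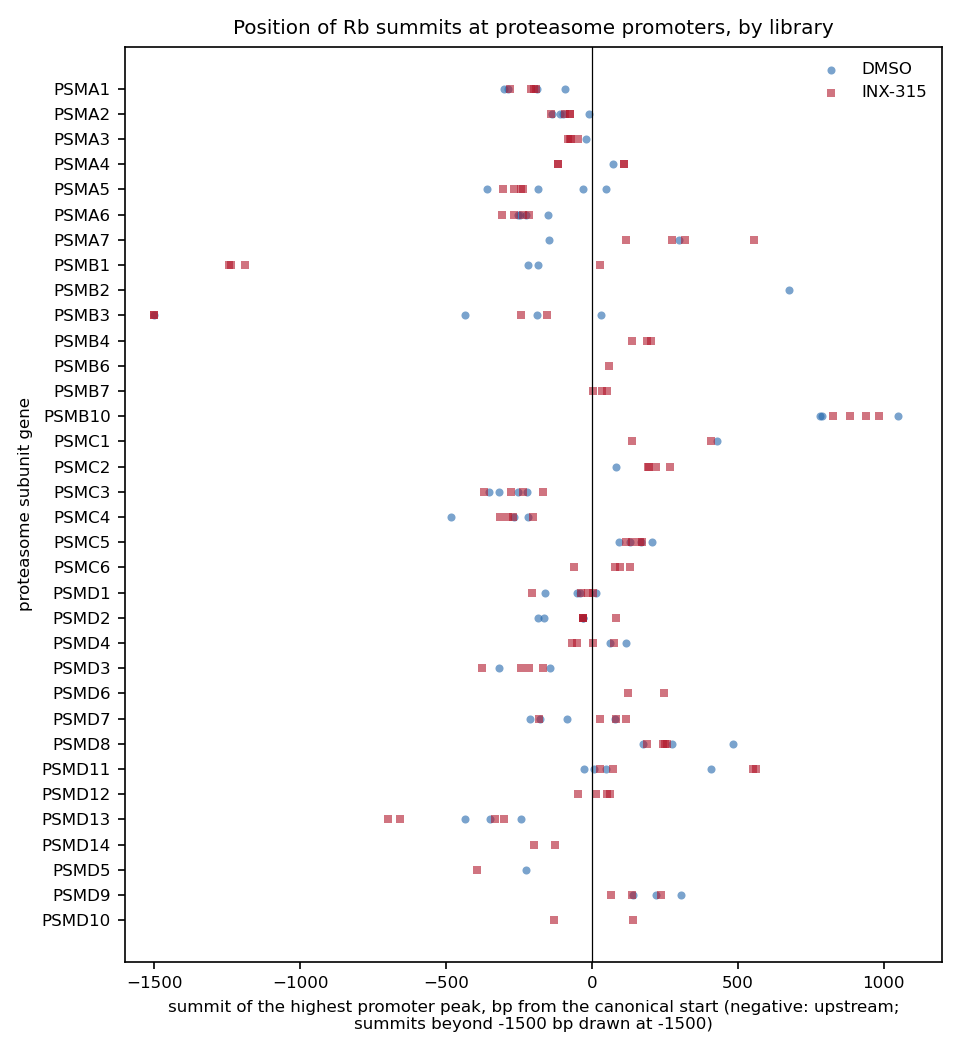
Distance of the summit of the highest promoter peak from the canonical transcript start of each of 34 proteasome subunit genes (horizontal axis, bp, negative upstream), with DMSO libraries as blue circles and INX-315 libraries as red squares. Most summits lie within 500 bp of the start; 3 PSMB3 summits farther upstream are drawn at the left end of their row.

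Positions were similar across libraries. The 34 genes with a peak gave 188 pairs of gene and library. In 177 of them the summit lay within 500 bp of a start of the gene itself, and the median was -41.5 bp. At 27 genes every summit lay within 500 bp of the canonical start. PSMB10, the inducible beta subunit retained among the 37, had its summits 781 to 1050 bp downstream of the canonical start. As at PSMA2, no summit was nearest its own gene at PSMD13, where all were nearest the start of SIRT3, a mitochondrial deacetylase gene that begins 634 bp away on the opposite strand. Both PSMB1 peaks gained in OVCAR-3 had their summits at -1237 and -1246 bp from the PSMB1 start and nearest to TBP, the gene of the TATA-binding protein, whereas both Kuramochi DMSO summits were nearest PSMB1. In all, 159 of the 188 summits had the start of the proteasome gene as the nearest coding start, and 10 genes shared a peak with another coding gene. A peak of a shared promoter cannot be assigned to either gene.

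Sequence around the summits was described last. The 200 bp summit windows of the 34 genes held a median of 14 CpG and 61.8% GC, beside 20 CpG and 69.5% GC in the windows of 13734 genes with a peak. E2F letters were found in 1 window (2.94%), that of PSMA1 shown above, beside 4.16% of all such windows. Antioxidant response elements were found in 8 windows (23.5% beside 8.87%), among them those of PSMC3, PSMC5, PSMC6 and PSMD12. CCAAT boxes were found in 11 (32.4% beside 19.1%), and ETS letters in 3 (8.82% beside 8.50%). CHR was present in 2 windows (5.88% beside 3.55%), nuclear respiratory factor 1 letters in 1 (2.94% beside 1.94%) and AP-1 letters in 1, at PSMC5 (2.94% beside 1.48%). In the 300 bp around all 37 canonical starts, which include the genes without a peak, E2F letters were found at PSMA1, PSMB3, PSMD4, PSMD5 and PSMD9 (13.5% beside 4.37% of all promoters). ETS letters were found at 14 starts (37.8% beside 14.1%) and antioxidant response elements at 9 (24.3% beside 14.1%). Of the 5 genes with E2F letters at the start, PSMA1 and PSMB3 had a peak in all 8 libraries, PSMD4 and PSMD9 in 6 and PSMD5 in 2. A match of letters is no evidence that a factor is bound.

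Other genes of the proteasome pathway were read from a list of 24 that holds the inducible catalytic subunits PSMB8 and PSMB9, activators, an inhibitor, further subunits, assembly factors, deubiquitinases, associated factors and the NFE2L1 axis. Bound genes went from 62.5% under DMSO to 91.7% in OVCAR-3 (26.8% and 55.5% of all genes), and from 54.2% to 95.8% in Kuramochi (24.8% and 53.2%). Gained genes numbered 4 (16.7%) in each line, near the 16.2% and 14.0% of all genes. Peaks in all 8 libraries were found at 13 of the 24 (54.2% beside 18.8%), PSMB8 and PSMB9 with the same heights from 1 shared peak. All 13 were higher under INX-315 in the mean of the lines, as were 99.8% of the genes tested, with a median log2 difference of 1.81. The largest was 2.31 at PSME1, an activator subunit, and the smallest 1.23 at PSMG4, an assembly chaperone of the core. NFE2L1, the transcription factor of proteasome genes, had 1.34 ± 0.29, and DDI2, the protease that activates it, 1.79 ± 0.31 (log2, SE). At POMP, the maturation factor of the core, and at PSME3 a peak was present in only 2 libraries.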

How the data were processed

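Rb and IgG2a CUT&RUN peak lists of OVCAR-3 and Kuramochi cells were analysed. The authors trimmed reads, aligned them to hg38 with Bowtie2 2.3.4.1 and called peaks in each library with MACS2 2.2.7.1 at a q-value of 0.05 against IgG, keeping duplicates. The deposited lists give a fold enrichment, which is a linear ratio of summit to local background, and each summit's p-value and q-value, both as −log10 values, as the authors' peak caller wrote them. No reads or counts were used.

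Whole fragments at each summit and the local background were recovered from the fold enrichment and p-value together, which worked for all 188 peaks at the 37 genes, and were divided by the mean coverage. Recovery and the limma fit were tested on simulated data. In the simulated heights only a small part of the genes changed and no library was shifted as a whole. That test therefore does not cover data in which nearly all genes rose, as here. The highest promoter peak stood for a gene. Log2 heights with no pseudocount of genes with a peak in all 8 Rb libraries were fitted with limma 3.58.1 (R 4.3.3, trend over mean height) on 4 group means, adjusted by Benjamini-Hochberg over 3762 genes at 0.1. Groups came from the sample labels. The study names its replicates as biological, but no label ties them to separate days. In the reported fit limma pooled the spread between libraries almost fully over genes of similar height. Its standard errors and p-values therefore measure that pooled spread between these libraries, and not each gene's own.

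The genes and lists were chosen with earlier results of these data known. Values in all libraries are given for the 5 highest genes under INX-315 among those with a peak in all 8 libraries, for genes gained in both lines, for 5 more gained in 1 line, and for up to 5 called per contrast with the largest difference. Alternatives covered peak threshold, list length, promoter window, overlap, scaling, measure, pseudocount, filter, shared peaks, replicate block and leaving out each library. Python 3.11.15 was used for all other steps.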

Additional observations from a re-analysis of the deposited data

How the results depend on the processing

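Numbers of bound and gained proteasome genes depended on list length. With lists of equal length the mean over the 4 INX-315 libraries was 14.75 genes in place of 28.75. With INX-315 OVCAR-3 then had 13 bound genes and 1 gained, and Kuramochi 11 bound and 0 gained. That alternative drops the weakest peaks of every longer list by construction. Leaving out 1 library gave, in OVCAR-3, 16 to 19 bound genes with DMSO, 28 to 32 with INX-315 and 10 to 13 gained. In Kuramochi it gave 16 to 22 and 26 to 29 bound, and 4 to 11 gained. The remaining library then stands alone for its group, so these numbers cannot fall below the reported ones and do not check them. A stricter q-value, a narrower promoter and the position of the summit left every number of bound and gained genes within 1.5 times the reported one.

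Of the 11 genes tested, the number higher under INX-315 was 11 to 11 in the mean of the lines when 1 library was left out. OVCAR-3 then gave 10 to 11, Kuramochi 9 to 11 and the difference between lines 0 to 0. With heights centred on each library's median the numbers were 1, 1 and 0, beside 9.04%, 3.64% and 4.01% of all genes tested. With a peak required in at least 4 libraries and absent heights set to the lowest of the library, 25, 25 and 24 of 25 genes were higher, beside 99.7%, 97.8% and 92.8% of all genes tested. Filled-in heights set the direction of genes with peaks under INX-315 alone, so these counts are no test of a rise. The number that differed between lines under DMSO was 1 in the reported fit. It was 4 with centred heights and 0 with listed fold enrichment, with a pseudocount of 1, at a threshold of 0.05 and at a q-value of at most 0.001, and ranged from 0 to 3 when 1 library was left out. The cause was not tested.

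Centring subtracts 1 shift from all genes of a library, and centred differences in the mean of the lines, none past the threshold, were negative for PSMA1 (-0.40), PSMC5 (-0.26), PSMC3 (-0.22), PSMB3 (-0.21), PSMA5 (-0.20), PSMD11 (-0.16), PSMD2 (-0.089) and PSMD7 (-0.026). For PSMC5 they were -0.25 in OVCAR-3 and -0.26 in Kuramochi.

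Deviations of single genes in libraries with the same replicate number correlated at -0.04 in OVCAR-3 and -0.01 in Kuramochi over 3762 genes. Such a correlation cannot show a shift shared by all genes of a library. The median height of the tested genes was higher in replicate 2 than in replicate 1 in each of the 4 groups. Whether the replicate numbers pair the libraries was therefore not settled. With the replicate block all 11 genes remained higher in the mean of the lines and 0 differed between lines. Depth limits low peaks most, since the smallest peak at these genes held 4 fragments.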
